A study of Arabidopsis thaliana with 12 samples.

Results

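The UDP-dependent glycosyltransferases (UGTs) of Arabidopsis thaliana were examined in whole seedlings of 4 genotypes. Members were the genes that the deposited annotation gives a UGT symbol, or describes as a UDP-glycosyltransferase superfamily protein or UDP-glucosyl transferase. This gave 131 of 33602 genes, 57 by symbol and 74 by description alone, after 3 genes were left out by rule. The wild type was Col-0. The quintuple mutant jazQ has lesions in JAZ1, JAZ3, JAZ4, JAZ9 and JAZ10, which encode repressors of jasmonate (JA) responses. The triple mutant mycT has lesions in MYC2, MYC3 and MYC4, which encode transcription factors that JAZ proteins repress, and jazQ mycT carries both sets. All 4 share the Col-0 ecotype, and each of the 3 libraries of a genotype was made from about 200 pooled whole seedlings, roots included, grown for 8 d in continuous light on solid medium with sucrose and without added JA. The Col-0 and jazQ libraries were taken over from an earlier study, and the study's methods state that all seedlings were grown and processed in parallel.

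UGTs transfer a sugar from a UDP-sugar to a small acceptor, which usually makes the acceptor more soluble, less reactive and easier to move into the vacuole. In Arabidopsis the acceptors include plant hormones, flavonoids, hydroxycinnamic acids, monolignols, sterols and xenobiotics, and many members lie side by side in the genome as tandem copies. The rule follows the annotation and not the enzyme class, so it also took in GBSS1, which makes starch, DGD1, which makes galactolipids, and other glycosyltransferases outside the plant secondary-product family.

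The libraries held 12336090 to 26347184 counts. The share of counts on ribosomal RNA genes was 10.96% for jazQ mycT replicate 1, 5.12% for mycT replicate 1 and 0.741% to 2.12% in the other libraries, so TPM values of other genes are lower in these 2 libraries than the same counts would give elsewhere. The mutated genes were read first. JAZ1 lay at 4.25 to 6.05 TPM in the 6 libraries with jazQ and at 32.3 to 60.0 TPM in the 6 without it. JAZ4 lay at 1.78 to 2.86 TPM and 4.77 to 6.29 TPM in the same libraries. JAZ3 and JAZ10 transcripts were higher in the libraries with jazQ, and JAZ9 levels overlapped. MYC2 lay at 13.2 to 18.6 TPM in mycT and 23.7 to 29.0 TPM in Col-0, but at 22.1 to 23.9 TPM in jazQ mycT. MYC3 and MYC4 transcripts were present in all genotypes, so gene counts check only part of the labels. The 13 root markers summed to 124 to 171 TPM and the 15 shoot markers to 28074 to 39539 TPM, and no marker was at 0 in any library. Much of the shoot sum comes from the photosynthesis genes RBCS1A and LHCB1.3, at 9644 to 9982 TPM and 9135 to 10795 TPM in Col-0. In whole seedlings, fewer cells of a type and less RNA per cell cannot be told apart.

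MYC proteins bind the G-box, CACGTG, so this motif was searched in the 300 bases before each annotated gene start (RefSeq annotation, build TAIR10.1). CACGTG is its own reverse complement, and both strands are therefore read at once. It occurred in 7.09% of 27443 protein-coding windows and in 11 of 130 member windows (8.46%), a share near that of all genes. Among the 23 members called in at least 1 comparison below, 4 held it, and their windows are shown around the motif, 5′ to 3′ on the strand of the gene, with the motif in capitals.
UGT85A3 (AT1G22380), chr1:7902428-7902471, minus strand: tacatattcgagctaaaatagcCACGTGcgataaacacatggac
UGT73B4 (AT2G15490), chr2:6761569-6761618, plus strand: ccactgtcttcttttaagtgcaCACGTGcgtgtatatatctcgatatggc
AT4G09500, chr4:6017932-6017981, plus strand: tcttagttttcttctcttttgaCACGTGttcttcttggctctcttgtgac
UGT76E2 (AT5G59590), chr5:24010810-24010859, minus strand: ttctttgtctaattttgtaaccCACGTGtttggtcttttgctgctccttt
The first bases of these motifs lie 22, 44, 67 and 149 bases before the gene starts, in the same order.

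The windows of AT3G46700 and UGT76B1, the members whose calls held in every alternative run for at least 1 comparison, hold no CACGTG. They are given whole, with the hexamers of the wider E-box form CANNTG in capitals.
AT3G46700, chr3:17202075-17202374, minus strand: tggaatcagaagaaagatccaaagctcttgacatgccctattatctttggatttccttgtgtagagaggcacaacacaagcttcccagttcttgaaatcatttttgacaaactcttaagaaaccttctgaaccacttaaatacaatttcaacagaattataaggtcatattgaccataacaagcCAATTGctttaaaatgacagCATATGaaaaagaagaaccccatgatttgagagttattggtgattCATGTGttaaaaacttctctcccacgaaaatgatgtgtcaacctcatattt
UGT76B1 (AT3G11340), chr3:3556254-3556553, plus strand: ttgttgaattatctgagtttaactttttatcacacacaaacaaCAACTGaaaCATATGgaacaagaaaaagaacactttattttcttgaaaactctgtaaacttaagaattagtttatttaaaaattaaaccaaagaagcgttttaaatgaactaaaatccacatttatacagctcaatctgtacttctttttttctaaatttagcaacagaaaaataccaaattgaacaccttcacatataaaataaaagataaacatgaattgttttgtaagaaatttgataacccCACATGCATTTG
CANNTG, which also reads alike on both strands, occurred 3 times in the first window and 4 times in the second. Of all windows 61.9% held at least 1, and the median number per window was 1. A match or its absence says only which letters stand in these 300 bases.

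Members were unevenly expressed. The median member had a mean of 7.48 TPM over the 12 libraries, 55 members had at least 10 TPM, 24 had less than 1 TPM, and 4 (UGT84B1, AT3G21791, AT5G54010 and AT1G51210) had no count in any library, which allows up to 3 counts in each. The 10 highest members held 37.3% of the summed TPM of the family. UGT73B1 led with 126 TPM, followed by UGT74F2 (80.6 TPM), the monolignol glucosyltransferase gene UGT72E1 (78.6 TPM), UGT73B2 (73.7 TPM), UGT88A1 (73.3 TPM) and UGT74D1, an auxin glucosyltransferase gene (68.4 TPM). GBSS1 (62.4 TPM), UGT75B1 (50.8 TPM), AT3G46700 (46.8 TPM) and UGT85A2 (44.6 TPM) completed the group. The family as a whole summed to 1942 ± 28.2 TPM for Col-0, 1979 ± 67.8 for jazQ, 1831 ± 102 for mycT and 1802 ± 158 TPM for jazQ mycT (mean ± SD, n = 3). The ranges of jazQ (1905 to 2038 TPM) and jazQ mycT (1621 to 1904 TPM) almost met, and as a share of counts they overlapped (0.244% to 0.259% and 0.218% to 0.245%). The lowest value was that of jazQ mycT replicate 1, the library with the most ribosomal RNA.

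Of the 131 members, 115 had enough counts to be tested. The other 16 had at most 12 counts in any library. Differences were tested with edgeR's quasi-likelihood test on all 12 libraries, and a member was called where the p, adjusted by the Benjamini-Hochberg method over all 20888 genes tested, was under 0.05. Fold changes are given as log2 ± SE on the scale of normalized counts. In all, 23 members were called in at least 1 of 6 comparisons, and 11 of them in at least 2. The plot of these 11 members shows their TPM in each library.

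**Figure D1:**
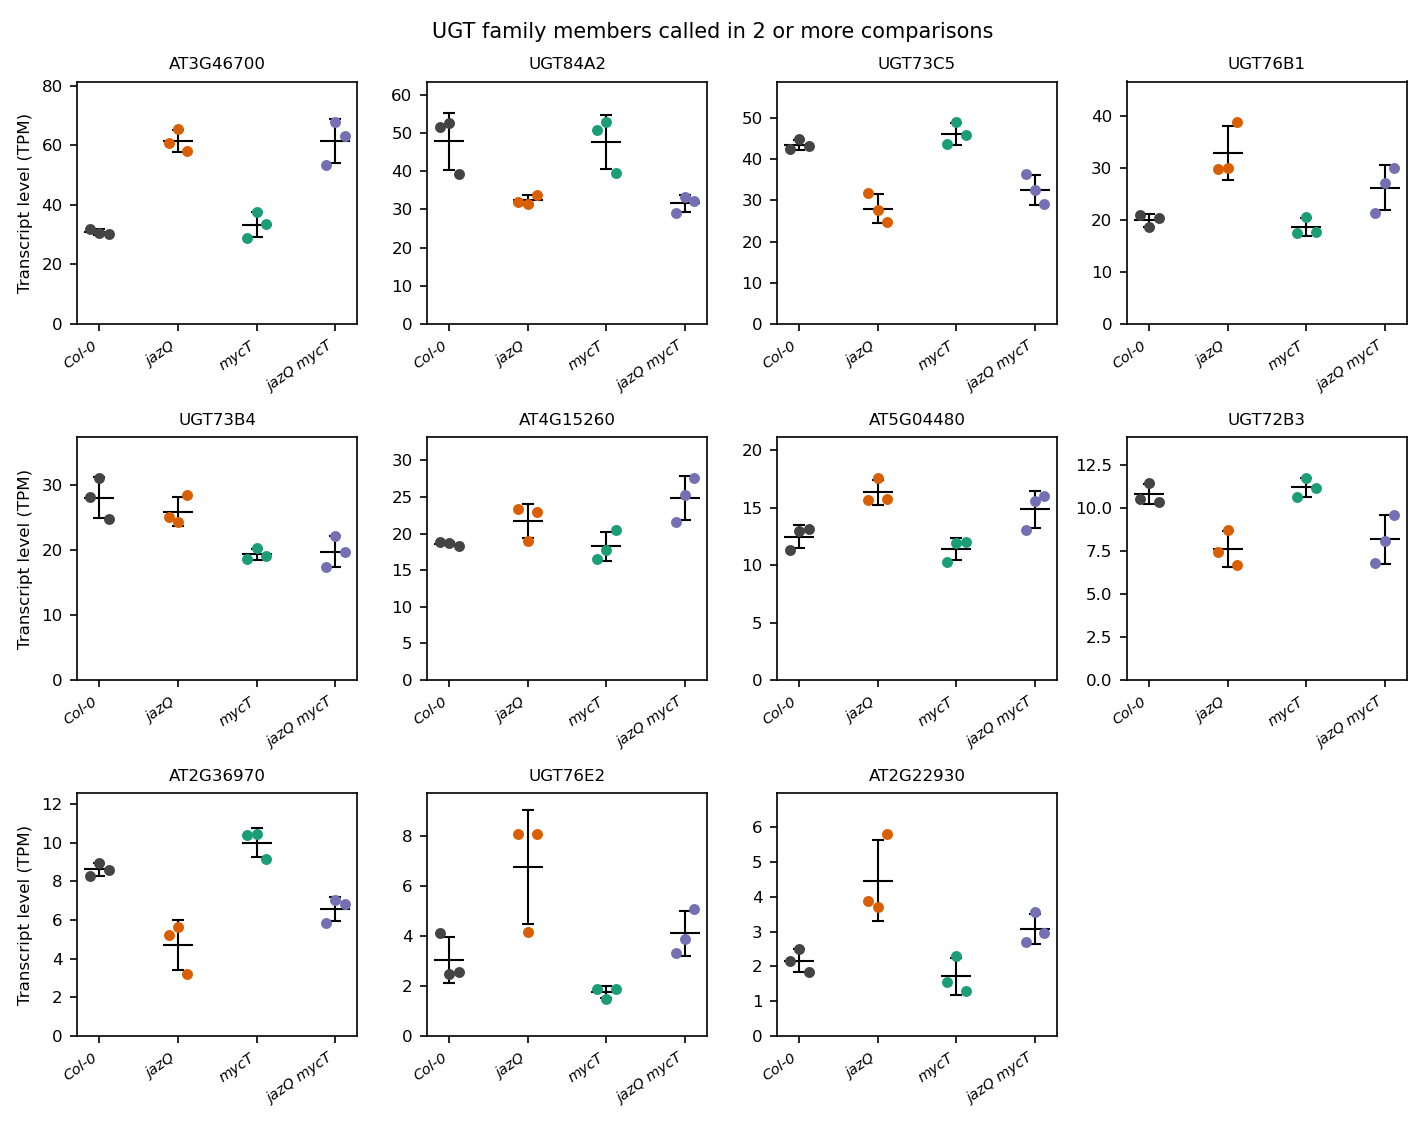
Transcript levels (TPM, y axis from 0) of the 11 members called in 2 or more comparisons, by genotype (x axis). Coloured points are single libraries, long bars the mean and short bars ± SD (n = 3). AT3G46700 lies between 28.99 and 37.53 TPM in the 6 libraries with intact JAZ genes and between 53.24 and 67.85 TPM in the 6 libraries with jazQ.

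Loss of the 5 JAZ proteins was compared in 2 backgrounds, with intact MYC genes (jazQ relative to Col-0) and without MYC2, MYC3 and MYC4 (jazQ mycT relative to mycT). Their fold changes share no library, but both were tested with a spread per gene estimated from all 12 libraries. Calls in the 2 comparisons are therefore not independent. In jazQ, 7 members rose and 4 fell, 9.57% of those tested, against 2.86% of all genes called in that comparison (1.75% higher and 1.11% lower). In jazQ mycT relative to mycT, 7 members rose and 6 fell, 11.3% of those tested, against 7.83% of all genes (4.05% higher and 3.77% lower). Both shares of members exceeded those of all genes, a difference that was not tested. Of the 11 members called in jazQ, 9 were also called in the same direction in jazQ mycT relative to mycT, 5 of them higher and 4 lower. That is 81.8% of the first list and 69.2% of the second. Over all genes the same count was 344, or 57.6% of 597 and 21.0% of 1635. Across the 115 members the fold changes of both comparisons had a Pearson's r of 0.55 and a Spearman's rho of 0.47, and across all genes tested 0.44 and 0.33. These are descriptions across genes, which are not independent replicates. The median member moved little, by 0.0225 in jazQ and −0.017 in jazQ mycT relative to mycT, where the medians of all genes were −0.0069 and −0.0041.

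**Figure D2:**
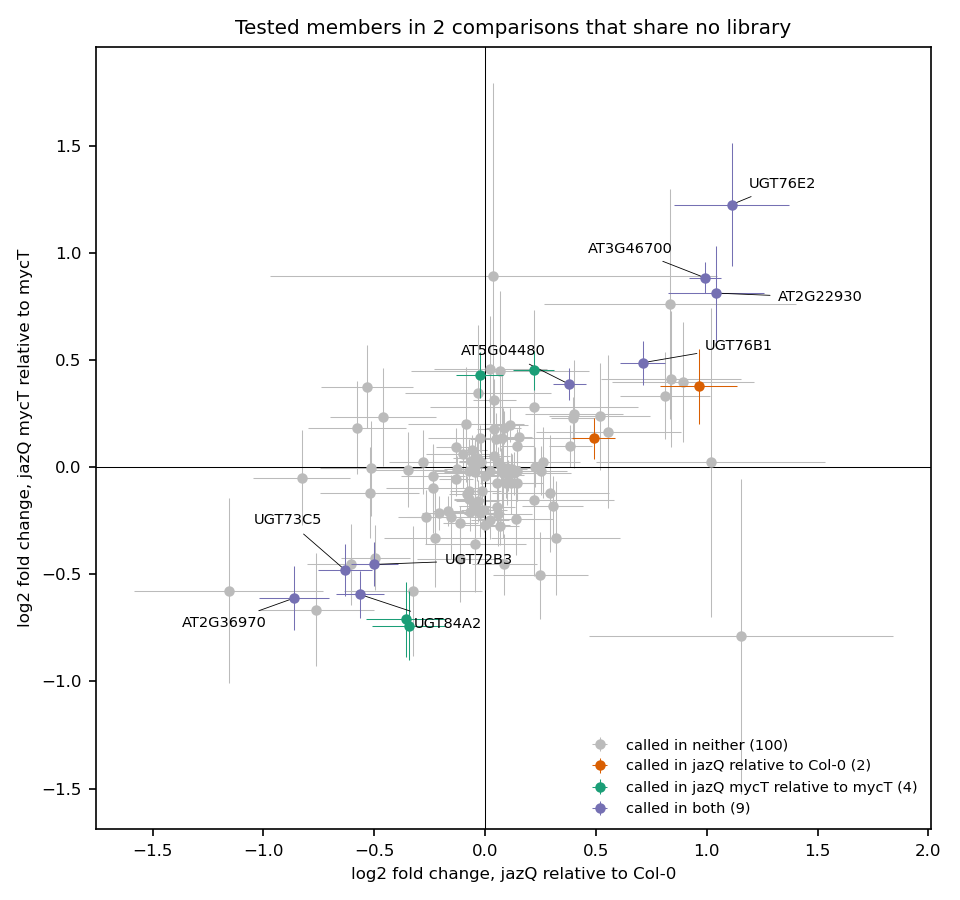
Log2 fold changes of the 115 tested members in jazQ relative to Col-0 (x axis) and in jazQ mycT relative to mycT (y axis), with SE bars. The 9 members called in both (named) have the same sign on both axes, 2 were called only in the first comparison, 4 only in the second and 100 in neither.

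AT3G46700, annotated as a UDP-glycosyltransferase superfamily protein with no known substrate in the sources used here, had the smallest adjusted p of the family. Its level was 31.85, 30.54 and 30.15 TPM for Col-0, 60.93, 65.41 and 58.02 for jazQ, 28.99, 37.53 and 33.65 for mycT and 53.24, 67.85 and 63.03 for jazQ mycT. Every library with jazQ lay above every library without it. It was 1.99-fold higher in jazQ than in Col-0 (log2 0.99 ± 0.07, edgeR, adjusted p = 7.85e-06) and 1.85-fold higher in jazQ mycT than in mycT (log2 0.88 ± 0.07, adjusted p = 1.7e-05). Relative to Col-0 it was 2.12-fold higher in jazQ mycT (log2 1.09 ± 0.07, adjusted p = 2.66e-06). Its value in mycT relative to Col-0 was 0.20 ± 0.07 (adjusted p = 0.182), and the interaction (how much the mycT effect in the jazQ background exceeds that in the wild type) was −0.11 ± 0.10 (adjusted p = 0.741). These 3 calls held in every alternative and without any single library.

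AT3G46700 is the sixth gene of the largest tandem array of the family, 7 members on chromosome 3 with at most 1 other gene between neighbours. None of the other 6 was called in any comparison. The next member on one side, AT3G46690, lay at 7.13 to 11.05 TPM over all libraries, and on the other side AT3G46720 lay at 3.02 to 4.52 TPM. UGT76E11 and UGT76E12, relatives of the JA-conjugating UGT76E1, belong to the same array. The fold change of UGT76E11 in jazQ was −0.27 ± 0.13 (adjusted p = 0.32). UGT76E12 varied from 0 to 3.32 TPM within Col-0 alone, and its value of 1.15 ± 0.68 in jazQ (adjusted p = 0.444) did not exceed that spread. Without Col-0 replicate 1 its difference passed the threshold (log2 3.23, adjusted p = 0.0481), which it did in no other alternative.

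**Figure D3:**
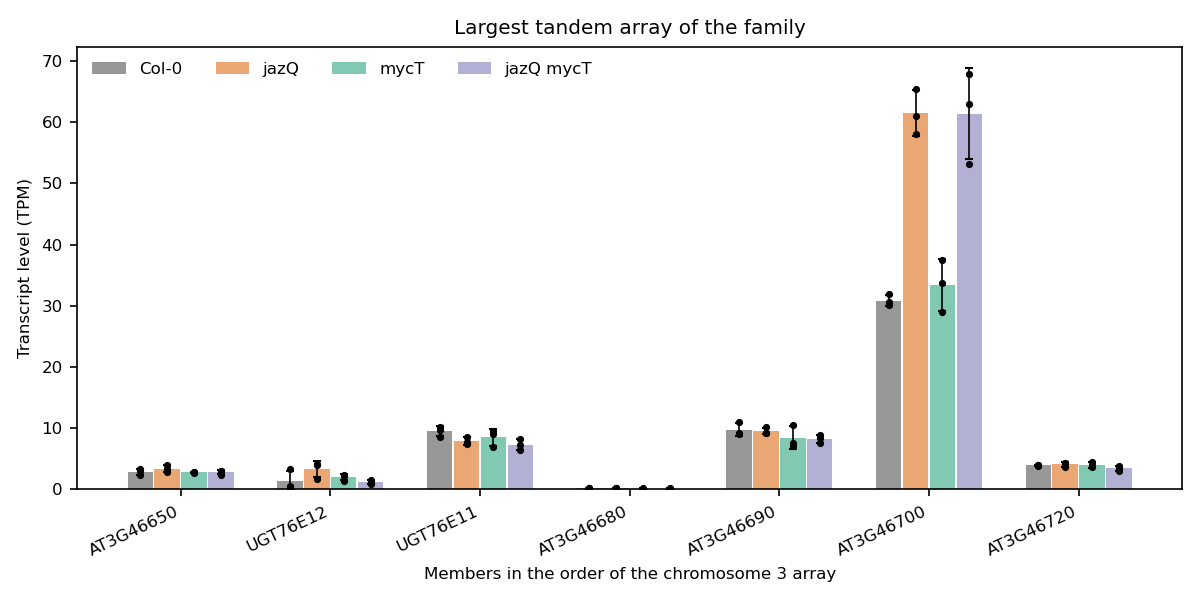
Transcript levels (TPM, y axis from 0) of the 7 members of the chromosome 3 array in their order on the chromosome (x axis), with 1 bar per genotype. Bars are means, error bars ± SD and points single libraries (n = 3). AT3G46700 is the highest of the array in every library, and the other 6 stay at or below 11.05 TPM.

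UGT76E1 and UGT76E2 form a separate pair on chromosome 5. UGT76E1 is known to glucosylate 12-hydroxyjasmonate, a product of JA breakdown, and UGT76E2 is its close relative. UGT76E2 lay at 4.12, 2.47 and 2.58 TPM for Col-0, 8.09, 4.15 and 8.08 for jazQ, 1.90, 1.50 and 1.89 for mycT and 3.33, 3.90 and 5.10 for jazQ mycT. The lowest jazQ library was just above the highest Col-0 library, and all jazQ mycT libraries were above all mycT libraries. UGT76E2 rose by 1.11 ± 0.26 in jazQ (edgeR, adjusted p = 0.0408) and by 1.23 ± 0.28 in jazQ mycT relative to mycT (adjusted p = 0.0215). The jazQ mycT level against Col-0 was 0.48 ± 0.26 higher (adjusted p = 0.332) and the mycT level −0.74 ± 0.29 (adjusted p = 0.221), and neither was called. The call in jazQ was lost on omission of Col-0 replicate 2 or 3, jazQ replicate 1 or 3, mycT replicate 2, or jazQ mycT replicate 2 or 3 (adjusted p 0.0511 to 0.137). The call relative to mycT was lost without mycT replicate 1 or 2 or jazQ mycT replicate 3 (adjusted p 0.0537 to 0.0891). The first was lost too on 3 TPM scales tested with limma (log2(TPM + 1) with and without a filter and log2(TPM + 0.1)), with the compared genotypes alone and without mycT replicate 1 and jazQ mycT replicate 1 together (adjusted p 0.0519 to 0.125), the second without a TPM filter and without both these libraries (adjusted p = 0.0947 and 0.0721). UGT76E1 was near the detection limit, with 0 to 0.74 TPM over all libraries, and was not called. Of the 4 JA-related members listed, 1 rose in each of these comparisons and none fell.

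Among 5 members that act on salicylate, its relatives or related defense acids, 2 rose in jazQ. UGT76B1, which conjugates isoleucic acid and is known for a role in plant defense and senescence, was at 20.82, 18.53 and 20.28 TPM for Col-0, 29.68, 29.90 and 38.77 for jazQ, 17.54, 20.59 and 17.75 for mycT and 21.39, 27.14 and 29.96 for jazQ mycT. No library with jazQ overlapped the libraries without it. UGT76B1 rose by 0.71 ± 0.10 in jazQ (1.64-fold, edgeR, adjusted p = 0.00222), by 0.49 ± 0.10 in jazQ mycT relative to mycT (adjusted p = 0.013) and by 0.48 ± 0.10 in jazQ mycT relative to Col-0 (adjusted p = 0.0154). The first call held in every alternative. The second was lost without mycT replicate 1 or jazQ mycT replicate 3 (adjusted p = 0.0537 and 0.0621), and the last without Col-0 replicate 2 or jazQ mycT replicate 2 or 3 (adjusted p 0.0577 to 0.0748). On every TPM scale both of these were lost (adjusted p 0.0648 to 0.119 and 0.124 to 0.179).

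UGT74F2 encodes a glucosyltransferase of salicylate and is the second highest member. It was at 72.60, 66.33 and 77.26 TPM for Col-0, 104.62, 104.59 and 95.45 for jazQ, 68.28, 70.49 and 73.58 for mycT and 59.05, 88.50 and 86.42 for jazQ mycT. The jazQ libraries stood above all others. Replicate 1 of jazQ mycT, the library with the most ribosomal RNA, lay below all Col-0 and mycT libraries. The other jazQ mycT libraries lay above all Col-0 and mycT libraries. UGT74F2 rose by 0.49 ± 0.10 in jazQ (edgeR, adjusted p = 0.0181), which did not hold on omission of Col-0 replicate 1 or 2 or of jazQ replicate 1 or 2 (adjusted p 0.0619 to 0.0837) or on any TPM scale (adjusted p 0.0774 to 0.14). Its value was 0.13 ± 0.10 in jazQ mycT relative to mycT (adjusted p = 0.436) and −0.29 ± 0.10 on comparing jazQ mycT with jazQ (adjusted p = 0.16), and the interaction of −0.36 ± 0.14 did not pass the threshold (adjusted p = 0.337). The neighbouring UGT74F1, also a salicylate glucosyltransferase gene, lay at 2.26 to 3.35 TPM and was not called. The remaining members of the group, UGT71C3 and UGT76D1, had values of 0.31 ± 0.14 and −0.58 ± 0.22 in jazQ without a call (adjusted p = 0.292 and 0.207).

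Of the other members that rose in jazQ, 3 have no annotated substrate. AT5G04480 was at 11.33, 13.00 and 13.15 TPM for Col-0, 15.69, 17.61 and 15.76 for jazQ, 10.30, 11.92 and 11.99 for mycT and 13.06, 15.57 and 16.00 for jazQ mycT. Only 1 jazQ mycT library reached the Col-0 range. The gene rose by 0.38 ± 0.08 in jazQ (edgeR, adjusted p = 0.0191), by 0.39 ± 0.07 in jazQ mycT relative to mycT (adjusted p = 0.00864) and by 0.34 ± 0.07 relative to Col-0 (adjusted p = 0.0192). The jazQ call was not kept on omission of Col-0 replicate 1 or of jazQ replicate 2 (adjusted p = 0.0794 and 0.083), and the call relative to Col-0 without Col-0 replicate 1 or jazQ mycT replicate 2 or 3 (adjusted p 0.0712 to 0.0774). The call relative to mycT was lost when mycT replicate 1 and jazQ mycT replicate 1, the libraries richest in ribosomal RNA, were left out together (adjusted p = 0.0644). On every TPM scale all 3 calls were lost (adjusted p 0.0671 to 0.252), and the jazQ call also with the compared genotypes alone (adjusted p = 0.0645).

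AT2G22930 was at 2.15, 2.50 and 1.85 TPM for Col-0, 3.88, 3.70 and 5.81 for jazQ, 1.54, 2.31 and 1.29 for mycT and 2.71, 3.56 and 2.97 for jazQ mycT. Libraries with jazQ lay above those without it. It rose by 1.04 ± 0.21 in jazQ (edgeR, adjusted p = 0.0242), lost on omission of Col-0 replicate 1 or 3 or of jazQ replicate 3 (adjusted p 0.0571 to 0.10), on log2(TPM + 0.1) and without a TPM filter (adjusted p = 0.0532 and 0.0841). The rise of 0.81 ± 0.22 in jazQ mycT relative to mycT (adjusted p = 0.044) was lost in 8 of 12 omissions of a library. These were Col-0 replicates 1 and 2, jazQ replicate 1, mycT replicates 1 and 3 and the 3 jazQ mycT replicates (adjusted p 0.0542 to 0.14). It was lost too on every TPM scale, with the compared genotypes alone and without both libraries rich in ribosomal RNA (adjusted p 0.0564 to 0.212). AT4G09500, a gene with a G-box in its window, was at 3.20, 4.58 and 2.71 TPM in Col-0 and 5.75, 7.69 and 6.62 TPM in jazQ, without overlap. It rose by 0.96 ± 0.17 in jazQ (adjusted p = 0.011), a call not kept on omission of Col-0 replicate 1 or of jazQ replicate 2 (adjusted p = 0.067 and 0.0551) or without a TPM filter (adjusted p = 0.0531), and its value in jazQ mycT relative to mycT was 0.38 ± 0.17 (adjusted p = 0.214).

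The members that fell on loss of the JAZ proteins included a gene of sinapate ester synthesis. UGT84A2 encodes a sinapic acid glucosyltransferase, which forms the glucose ester that feeds the UV-absorbing sinapoyl malate of leaves. It was at 51.57, 52.62 and 39.30 TPM for Col-0, 31.81, 31.39 and 33.89 for jazQ, 50.67, 52.89 and 39.64 for mycT and 29.18, 33.34 and 32.32 for jazQ mycT. All libraries with jazQ lay below all libraries without it. UGT84A2 fell by 0.56 ± 0.11 in jazQ (edgeR, adjusted p = 0.0171), by 0.59 ± 0.11 in jazQ mycT relative to mycT (adjusted p = 0.00637) and by 0.50 ± 0.11 relative to Col-0 (adjusted p = 0.0193). The jazQ call was lost on omission of Col-0 replicate 1 or 2 or of jazQ replicate 1 or 2 (adjusted p 0.0548 to 0.0831) and without a TPM filter (adjusted p = 0.0924), and the call relative to Col-0 without Col-0 replicate 1 or 2 or jazQ mycT replicate 2 or 3 (adjusted p 0.0654 to 0.0847). The call relative to mycT held without any single library but not without mycT replicate 1 and jazQ mycT replicate 1 together (adjusted p = 0.057). Of the 8 phenylpropanoid members listed, UGT84A2 was the only one called in the main edgeR fit. Its relative UGT84A1 had values of −0.49 ± 0.16 in jazQ (adjusted p = 0.119) and −0.42 ± 0.15 in jazQ mycT relative to mycT (adjusted p = 0.11), and neither was called.

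UGT73C5, which glucosylates brassinosteroids and the fungal toxin deoxynivalenol, lies with UGT73C6 in an array on chromosome 2. It was at 42.35, 44.86 and 43.09 TPM for Col-0, 31.69, 27.54 and 24.70 for jazQ, 43.66, 49.02 and 45.85 for mycT and 36.32, 32.43 and 29.08 for jazQ mycT. Libraries with jazQ lay below those without it. It fell by 0.63 ± 0.12 in jazQ (edgeR, adjusted p = 0.0179) and by 0.48 ± 0.12 in jazQ mycT relative to mycT (adjusted p = 0.0313). The first call was lost on omission of Col-0 replicate 1 or 2 or of jazQ replicate 2 or 3 (adjusted p 0.0512 to 0.0732), the second without any of the mycT libraries or jazQ mycT replicate 2 or 3 (adjusted p 0.057 to 0.117) and with the compared genotypes alone (adjusted p = 0.0547). UGT73C6 had values of −0.60 ± 0.20 (adjusted p = 0.134) and −0.45 ± 0.19 (adjusted p = 0.166) in the same comparisons. Of the 50-base stretches of the transcripts, the length of the reads, 6.76% for UGT73C5 and 7.86% for UGT73C6 also occur in another gene, nearly all of them in the partner, so a part of their reads could be assigned to either.

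UGT72B3 and AT2G36970, neither with an annotated substrate, also fell. UGT72B3 was at 10.53, 11.44 and 10.35 TPM for Col-0, 7.41, 8.71 and 6.69 for jazQ, 10.65, 11.73 and 11.17 for mycT and 6.80, 8.08 and 9.60 for jazQ mycT. It fell by 0.50 ± 0.11 in jazQ (edgeR, adjusted p = 0.0261) and by 0.45 ± 0.10 in jazQ mycT relative to mycT (adjusted p = 0.0189). The first was lost on omission of Col-0 replicate 1 or 2 or of jazQ replicate 1 or 3 (adjusted p 0.0702 to 0.0922), the second without mycT replicate 1 or 2 or jazQ mycT replicate 1 or 2 (adjusted p 0.0595 to 0.0752). On every TPM scale both were lost (adjusted p 0.0656 to 0.138), the first also with the compared genotypes alone (adjusted p = 0.0783) and the second without both libraries rich in ribosomal RNA (adjusted p = 0.138). AT2G36970 was at 8.29, 8.98 and 8.59 TPM for Col-0, 5.24, 5.66 and 3.21 for jazQ, 10.42, 10.46 and 9.14 for mycT and 5.85, 7.03 and 6.82 for jazQ mycT. For both genes, libraries with jazQ lay below those without it. AT2G36970 fell by 0.86 ± 0.16 in jazQ (adjusted p = 0.0127), which held without any single library but not with the compared genotypes alone (adjusted p = 0.059), and by 0.61 ± 0.15 in jazQ mycT relative to mycT (adjusted p = 0.0271), which was lost without mycT replicate 1 or 2 or any of the jazQ mycT libraries (adjusted p 0.0702 to 0.0993), on every TPM scale (adjusted p 0.0581 to 0.116) and without both libraries rich in ribosomal RNA (adjusted p = 0.169).

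A further 4 members were called in jazQ mycT relative to mycT and not in jazQ. AT4G15260 was at 18.80, 18.77 and 18.35 TPM for Col-0, 23.30, 18.97 and 22.88 for jazQ, 16.52, 17.82 and 20.47 for mycT and 21.61, 25.25 and 27.60 for jazQ mycT, the highest group. It rose by 0.45 ± 0.09 relative to mycT (edgeR, adjusted p = 0.0098) and by 0.51 ± 0.09 relative to Col-0 (adjusted p = 0.00593), and had a value of 0.22 ± 0.09 in jazQ (adjusted p = 0.247). Both calls held without any single library. The first was lost without mycT replicate 1 and jazQ mycT replicate 1 together (adjusted p = 0.0652) and without a TPM filter (adjusted p = 0.0806), the second on every TPM scale (adjusted p 0.0582 to 0.0895).

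UGT73B5 rose by 0.43 ± 0.11 relative to mycT (edgeR, adjusted p = 0.0292), from 18.06, 22.02 and 26.62 TPM in mycT to 26.70, 33.42 and 28.64 TPM in jazQ mycT. Of the 3 jazQ mycT libraries, 1 lay within the range of Col-0 and jazQ (27.96 to 31.63 TPM), 1 below it and 1 above it. The call was lost without mycT replicate 1 or 2 or jazQ mycT replicate 1 or 2 (adjusted p 0.0686 to 0.112), on every TPM scale, with the compared genotypes alone and without both libraries rich in ribosomal RNA (adjusted p 0.0817 to 0.168). AT2G16890 and AT1G01390, without an annotated substrate, fell by 0.74 ± 0.16 (adjusted p = 0.0163) and 0.71 ± 0.17 (adjusted p = 0.0273). AT2G16890 was at 8.29, 8.22 and 6.64 TPM in mycT and 4.95, 4.62 and 4.14 TPM in jazQ mycT. AT1G01390 was at 2.81, 2.70 and 2.02 TPM in mycT and 1.36, 1.83 and 1.53 TPM in jazQ mycT. The groups did not overlap for either gene. The first call was lost without mycT replicate 1 or 2 or jazQ mycT replicate 2 or 3 (adjusted p 0.0504 to 0.0775), the second without mycT replicate 1 or 2 or any of the jazQ mycT libraries (adjusted p 0.0524 to 0.123). The AT1G01390 call was lost too with DESeq2 (adjusted p = 0.0611), on every TPM scale, with the compared genotypes alone and without both libraries rich in ribosomal RNA (adjusted p 0.0615 to 0.214). In this comparison the median fold change of the 15 shoot markers was −0.24, with 3 lower, and that of the 13 root markers −0.16, with 2 lower. Summed over each list, shoot markers were at 34022 to 39539 TPM in mycT and 28074 to 35902 TPM in jazQ mycT, and root markers at 139 to 157 TPM and 124 to 147 TPM. Their part in the member results was not tested.

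Loss of the MYC proteins alone was read from mycT relative to Col-0, where few genes of any kind were called. Of 115 members, 3 fell (2.61%) and none rose, against 1.8% of all genes (0.847% lower and 0.957% higher), a share close to that of all genes. At an unadjusted p under 0.05 (edgeR) the shares were 20% of members and 17% of all genes. UGT73B4, a relative of UGT73B5, was at 28.16, 31.05 and 24.76 TPM for Col-0, 24.99, 24.26 and 28.41 for jazQ, 18.58, 20.29 and 19.02 for mycT and 17.39, 22.10 and 19.72 for jazQ mycT. All libraries with mycT lay below all libraries without it. UGT73B4 fell by 0.41 ± 0.07 in mycT (edgeR, adjusted p = 0.0111) and by 0.33 ± 0.07 in jazQ mycT relative to Col-0 (adjusted p = 0.011), and its value from jazQ to jazQ mycT was −0.27 ± 0.07 (adjusted p = 0.0537). The mycT call was lost on omission of Col-0 replicate 2 or mycT replicate 1 (adjusted p = 0.0662 and 0.0533), the other without Col-0 replicate 2 or jazQ mycT replicate 3 (adjusted p = 0.0504 and 0.0589). Without mycT replicate 1 and jazQ mycT replicate 1 together, both were lost (adjusted p = 0.0686 and 0.0543), and the mycT call was lost also without a TPM filter (adjusted p = 0.0908) and with the compared genotypes alone (adjusted p = 0.0641). UGT73B4 and its neighbour UGT73B5 share 18.5% of the 50-base stretches of the UGT73B4 transcript, so their counts are not fully separate.

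AT4G27560 was at 18.04, 22.56 and 16.17 TPM for Col-0, 18.58, 22.18 and 17.78 for jazQ, 11.31, 13.62 and 10.61 for mycT and 12.58, 12.96 and 13.27 for jazQ mycT. Here too every library with mycT lay below every library without it. It fell by 0.57 ± 0.12 in mycT (edgeR, adjusted p = 0.0378), and its values in jazQ mycT were −0.44 ± 0.12 relative to Col-0 (adjusted p = 0.0534) and −0.49 ± 0.12 relative to jazQ (adjusted p = 0.0593). Both of the latter passed with DESeq2 (adjusted p = 0.0227 and 0.0143), on log2(TPM + 1) (adjusted p = 0.0357 and 0.0471) and on log2(TPM + 0.1) (adjusted p = 0.0355 and 0.0475). On log2(TPM + 1) the medians of all genes were shifted in the same direction, by −0.0924 and −0.0975, and on log2(TPM + 0.1) by −0.101 and −0.106. The mycT call was lost on omission of Col-0 replicate 1 or 2, jazQ replicate 1, mycT replicate 1 or 3 or jazQ mycT replicate 2 or 3 (adjusted p 0.0584 to 0.148), without a TPM filter, with the compared genotypes alone and without both libraries rich in ribosomal RNA (adjusted p 0.0952 to 0.131). AT4G27560 shares 19.5% of its 50-base stretches with the neighbouring AT4G27570, which lay at 0.66 to 1.55 TPM. AT1G75420 was at 15.01, 15.80 and 14.12 TPM in Col-0 and 11.49, 11.76 and 11.38 TPM in mycT and fell by 0.28 ± 0.06 (adjusted p = 0.0463). This call was lost in 11 of 12 omissions of a library, all but Col-0 replicate 3 (adjusted p 0.0502 to 0.186). It was lost too with the replicate number as a block (adjusted p = 0.0717), with DESeq2 (adjusted p = 0.0841) and without a count filter (adjusted p = 0.0702). The same held on every TPM scale, with the compared genotypes alone and without both libraries rich in ribosomal RNA (adjusted p 0.0831 to 0.168). The block, fitted over all 12 libraries and not only over those of Col-0 and mycT, left 2 members lower in mycT. From Col-0 to mycT the median fold change of the 15 shoot markers was 0.21, with 3 higher (RBCS1A, CA1 and RCA). The others ranged from −0.04 (ATML1) to 0.32 (LHCB2.1) without a call. All 15 summed to 29619 to 32844 TPM in Col-0 and 34022 to 39539 TPM in mycT. The root markers had a median of 0.08 with none called, and summed to 133 to 171 TPM in Col-0 and 139 to 157 TPM in mycT. Their part in the falls was not tested.

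The 6 genes listed for induction by stress, pathogens or xenobiotics included these relatives of UGT73B4. UGT73B1, the highest member of the family, was at 132, 145 and 148 TPM for Col-0, 157, 146 and 116 for jazQ, 99.4, 114 and 117 for mycT and 99.0, 115 and 121 for jazQ mycT. The mycT and jazQ mycT libraries lay below all Col-0 libraries, but the differences of −0.27 ± 0.10 and −0.25 ± 0.10 were not called (edgeR, adjusted p = 0.194 and 0.191). UGT73B2 and UGT73B3, its neighbours on chromosome 4, had values of −0.21 ± 0.06 and −0.24 ± 0.06 in mycT (adjusted p = 0.102 and 0.0594) and of −0.22 ± 0.06 and −0.21 ± 0.06 in jazQ mycT relative to Col-0 (adjusted p = 0.0566 and 0.0542). With DESeq2, UGT73B3 passed in mycT (adjusted p = 0.0341) and UGT73B2 in jazQ mycT relative to Col-0 (adjusted p = 0.0474), and both passed in the latter on log2(TPM + 1) (adjusted p = 0.0451 for UGT73B2 and 0.0473 for UGT73B3). On that scale the median of all genes in this comparison was itself shifted by −0.0924. All 6 had negative values in mycT, with a median of −0.31, and 1 was called with edgeR. Of the 115 tested members, 46 had negative values in this comparison. UGT73C1, another of the 6, was called lower in jazQ without mycT replicate 3 (adjusted p = 0.0384) and with the replicate block (adjusted p = 0.0312). The negative sign was not particular to mycT. All 6 were negative in jazQ too, from −0.83 to −0.02 with a median of −0.06, and none was called with edgeR.

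In jazQ mycT relative to Col-0, 6 members rose and 2 fell (6.96% of those tested), against 5.48% of all genes (2.81% higher and 2.68% lower). With DESeq2, 5 were called higher and 5 lower, and on log2(TPM + 1), a scale on which the median of all genes was shifted by −0.0924, 1 was higher and 7 were lower. Of these 8, AT3G46700, UGT76B1, AT5G04480, AT4G15260, UGT84A2 and UGT73B4 are given above. This comparison shares its Col-0 libraries with that of jazQ, and 3 members were called higher and 1 lower in both. The remaining members were UGT85A3 and AT5G03490. UGT85A3 carries the G-box nearest to its gene start. It was at 0.51, 0.38 and 0.33 TPM for Col-0, 0.74, 1.05 and 0.53 for jazQ, 0.60, 0.82 and 0.80 for mycT and 1.05, 0.94 and 0.87 for jazQ mycT. Each mutant lay above Col-0, and the level was low in all. UGT85A3 rose by 1.3 ± 0.30 in jazQ mycT (edgeR, adjusted p = 0.0256), and had values of 0.89 ± 0.32 in jazQ (adjusted p = 0.173) and 0.91 ± 0.32 in mycT (adjusted p = 0.166). The call was lost without any of the Col-0 libraries or jazQ mycT replicate 1 or 2 (adjusted p 0.0519 to 0.0931), with DESeq2 (adjusted p = 0.0619) and without both libraries rich in ribosomal RNA (adjusted p = 0.102). AT5G03490 was at 8.99, 8.35 and 8.76 TPM in Col-0 and 9.34, 12.53 and 12.79 TPM in jazQ mycT and rose by 0.49 ± 0.10 (adjusted p = 0.0121). The groups did not overlap. This call was lost on omission of Col-0 replicate 2 or of jazQ mycT replicate 2 or 3 (adjusted p 0.0522 to 0.0599) and on every TPM scale (adjusted p 0.116 to 0.171).

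Loss of the MYC proteins in the jazQ background gave 1 member higher and 2 lower (2.61% of those tested), against 2.21% of all genes (1.33% higher and 0.876% lower), a share close to that of all genes. On log2(TPM + 1), where the median of all genes was −0.0975, none was higher and 3 were lower. With edgeR, none of the 11 members called in jazQ relative to Col-0 was among the 3 called here. With DESeq2, AT2G36970, lower in jazQ, was called higher in jazQ mycT than in jazQ (log2 0.57, adjusted p = 0.0488). UGT71B6, which glucosylates abscisic acid, was at 4.98, 2.87 and 4.71 TPM for Col-0, 3.06, 3.07 and 2.77 for jazQ, 3.64, 4.37 and 4.85 for mycT and 5.86, 5.80 and 4.62 for jazQ mycT. The jazQ libraries lay below all mycT and jazQ mycT libraries, whereas Col-0 spanned most of the range. UGT71B6 was 0.98 ± 0.20 higher in jazQ mycT than in jazQ (edgeR, adjusted p = 0.0227), a call lost without any of the jazQ libraries or jazQ mycT replicate 1 or 2 (adjusted p 0.0652 to 0.0955), on every TPM scale (adjusted p 0.0518 to 0.10) and without both libraries rich in ribosomal RNA (adjusted p = 0.108). UGT71C5, the other abscisic acid glucosyltransferase gene that was tested, lay at 16.28 to 21.77 TPM over all libraries and was not called.

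UGT85A1, which O-glucosylates the cytokinin zeatin, was at 32.08, 31.27 and 27.90 TPM for Col-0, 39.03, 45.57 and 34.73 for jazQ, 25.76, 25.47 and 24.54 for mycT and 23.47, 30.70 and 27.02 for jazQ mycT. The jazQ libraries were the highest, with no overlap with any other genotype. UGT85A1 fell by 0.46 ± 0.10 from jazQ to jazQ mycT (edgeR, adjusted p = 0.0235), and its value in jazQ relative to Col-0 was 0.38 ± 0.10 (adjusted p = 0.0521). The jazQ difference passed with DESeq2 (adjusted p = 0.012), RLE size factors (adjusted p = 0.0493), no count filter (adjusted p = 0.0462) and without jazQ replicate 3 (adjusted p = 0.0134). The call between jazQ and jazQ mycT was lost without jazQ replicate 1 or 2 or jazQ mycT replicate 1 or 3 (adjusted p 0.0727 to 0.109), without a TPM filter (adjusted p = 0.0556), with the compared genotypes alone (adjusted p = 0.0692) and without both libraries rich in ribosomal RNA (adjusted p = 0.0924). The cytokinin N-glucosyltransferase genes UGT76C1 and UGT76C2 were not called in any comparison. AT5G53990 was at 3.21, 3.01 and 1.96 TPM for Col-0, 3.33, 4.07 and 3.47 for jazQ, 1.39, 1.29 and 1.27 for mycT and 1.86, 1.63 and 1.14 for jazQ mycT. Libraries with mycT lay below those without it. On comparing jazQ mycT with jazQ it fell by 1.10 ± 0.23 (adjusted p = 0.0252) and had a value of −0.95 ± 0.24 in mycT relative to Col-0 (adjusted p = 0.0701), which passed without Col-0 replicate 3 (adjusted p = 0.0314). The call was lost without jazQ replicate 1 or 2 or jazQ mycT replicate 2 or 3 (adjusted p 0.0637 to 0.11) and with the compared genotypes alone (adjusted p = 0.0576).

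No member was called in the interaction (edgeR), where 0.579% of all genes were called (0.469% higher and 0.11% lower). DESeq2 also called 0. At an unadjusted p under 0.05 there were 11 members (9.57% of those tested, against 11.3% of all genes) with edgeR and 9 with DESeq2. The smallest adjusted p was that of UGT71B6 (0.262, log2 0.91 ± 0.28). UGT73B5, with 0.45 ± 0.15 (adjusted p = 0.285), passed the threshold only without mycT replicate 3 (adjusted p = 0.0492). A p that misses the threshold does not show that the effects of jazQ were the same with and without the MYC genes.

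In the main edgeR fit, members with other annotated roles were not called in any comparison. They were the auxin-related UGT74D1 and UGT74E2, the flavonoid-related AT4G14090, UGT78D1, UGT78D2 and AT1G06000, the monolignol-related UGT72E1, UGT72E2, UGT72E3 and UGT72B1, and the sterol glucosyltransferase genes UGT80B1 and SGT (AT3G07020). AT4G14090, which encodes an anthocyanidin 5-O-glucosyltransferase, came closest, with 3.29, 3.71 and 3.80 TPM in Col-0 and 5.11, 8.43 and 5.41 TPM in jazQ. These groups did not overlap, and the difference was 0.81 ± 0.20 (edgeR, adjusted p = 0.0553). It passed with DESeq2 (adjusted p = 0.0175), without a count filter (adjusted p = 0.0462), on log2(TPM + 0.1) (adjusted p = 0.0488) and without jazQ mycT replicate 1 (adjusted p = 0.0417), but not on log2(TPM + 1). Without mycT replicate 3, UGT74D1 and UGT78D2 were lower in jazQ mycT than in mycT (edgeR, adjusted p = 0.00639 and 0.0307), and UGT74D1 also relative to Col-0 (adjusted p = 0.0434). UGT72B1 was lower relative to mycT with the replicate block and without Col-0 replicate 1 (adjusted p = 0.0399 and 0.0329). UGT78D1 and UGT78D2, which add the first sugar to flavonols, lay at 22.38 to 28.35 TPM and 34.66 to 48.23 TPM over all libraries. The plot of members by role shows these values beside those of the called members.

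**Figure D4:**
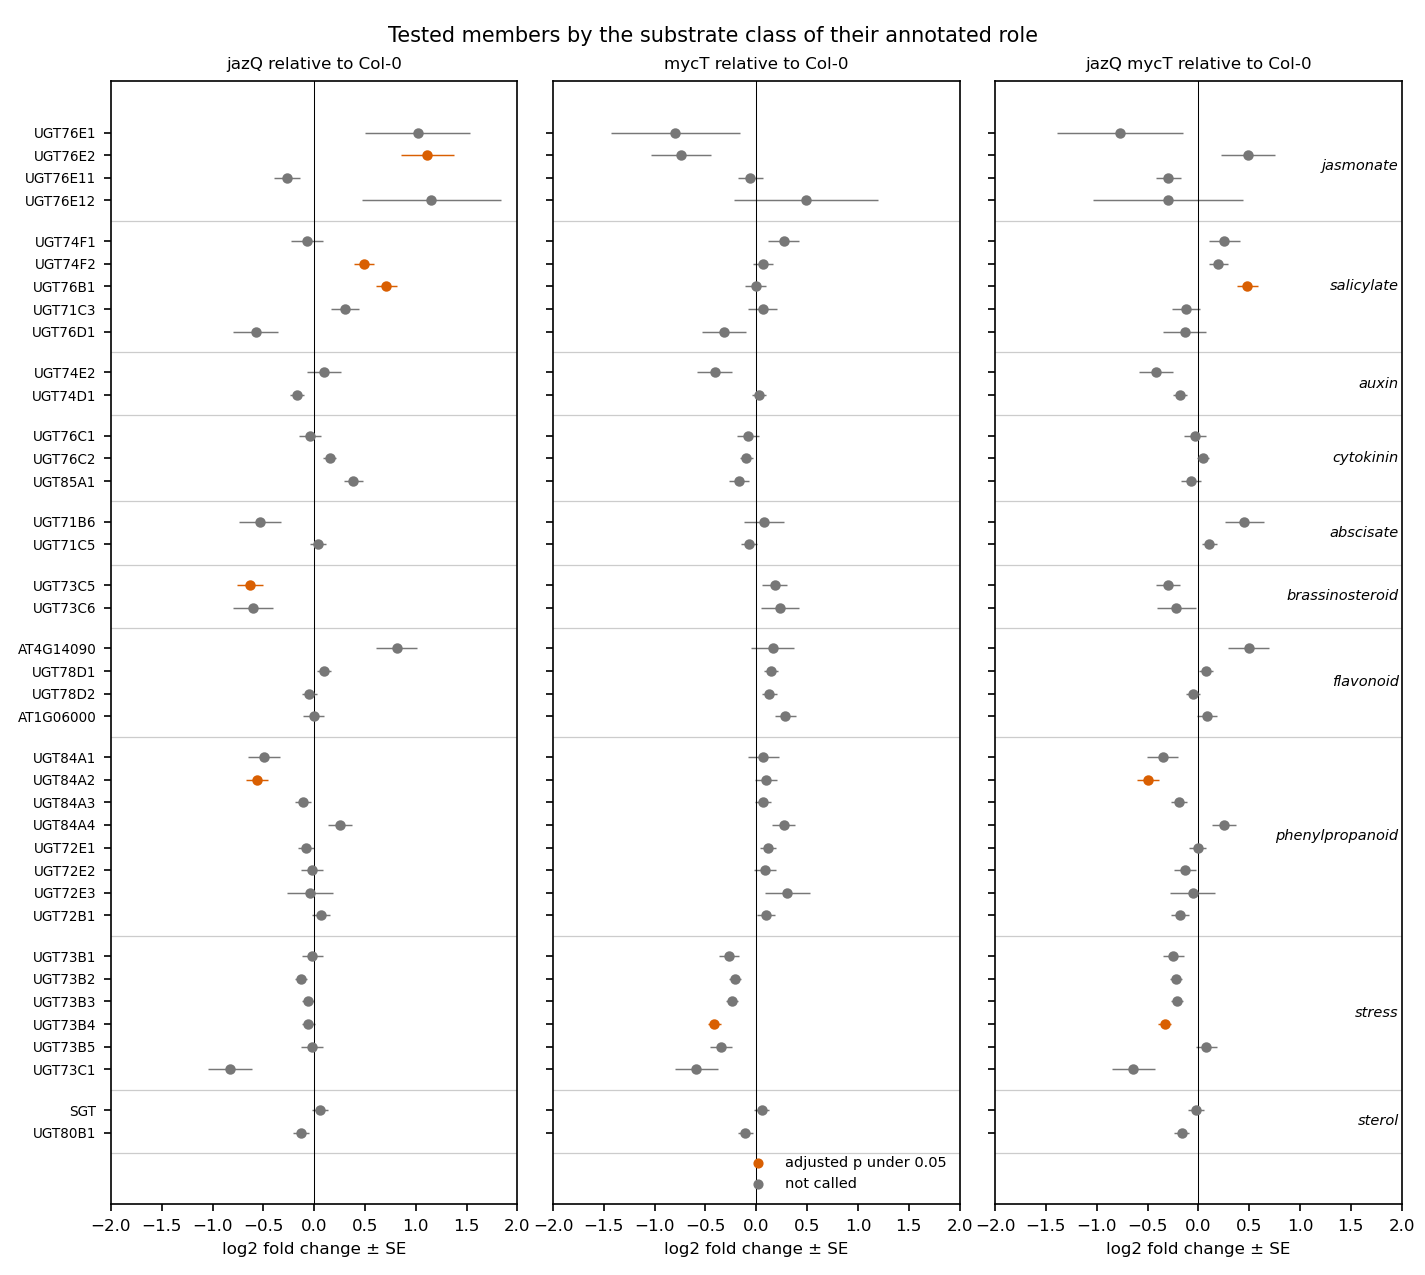
Log2 fold changes ± SE (x axis) of the tested members with an annotated role, grouped by substrate class or, for "stress", by inducing condition (names at right), for each mutant against the wild type. Orange points passed the threshold of 0.05 and grey points did not. The called members are UGT76E2, UGT74F2, UGT76B1, UGT73C5 and UGT84A2 in jazQ, UGT73B4 in mycT, and UGT76B1, UGT84A2 and UGT73B4 in jazQ mycT.

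UGTs depend on UDP-sugars, and 22 genes of UDP-sugar supply were read from the same fit. In each mutant relative to Col-0 only RHM1, which makes UDP-rhamnose, was called. It was at 78.93, 75.17 and 83.64 TPM for Col-0, 112.90, 113.39 and 102.72 for jazQ, 108.62, 123.31 and 105.72 for mycT and 90.47, 108.36 and 102.67 for jazQ mycT. All Col-0 libraries lay below all mutant libraries. RHM1 rose by 0.46 ± 0.07 in jazQ (edgeR, adjusted p = 0.00297), by 0.60 ± 0.07 in mycT (adjusted p = 0.000892) and by 0.44 ± 0.07 in jazQ mycT (adjusted p = 0.00258), and these calls held without any single library, the last not without a TPM filter (adjusted p = 0.0594). The 3 comparisons share the Col-0 libraries. Between the mutants, SUS4, a sucrose synthase gene, fell by 0.83 ± 0.17 from jazQ to jazQ mycT (adjusted p = 0.0243), lost without jazQ replicate 2 or any of the jazQ mycT libraries (adjusted p 0.0754 to 0.117), on log2(TPM + 1) and log2(TPM + 0.1), with the compared genotypes alone and without both libraries rich in ribosomal RNA (adjusted p 0.0552 to 0.104). In jazQ mycT relative to mycT, UGE1, which interconverts UDP-glucose and UDP-galactose, rose by 0.39 ± 0.10 (adjusted p = 0.0378) and UGD3, which makes UDP-glucuronic acid, fell by 0.31 ± 0.08 (adjusted p = 0.0409). The UGE1 call was lost without jazQ replicate 1, mycT replicate 1 or 2 or jazQ mycT replicate 2 or 3 (adjusted p 0.0511 to 0.152), the UGD3 call without Col-0 replicate 2 or 3, jazQ replicate 1, mycT replicate 1 or 3 or any of the jazQ mycT libraries (adjusted p 0.0508 to 0.148). Both were lost on every TPM scale, with the compared genotypes alone and without both libraries rich in ribosomal RNA (adjusted p 0.0547 to 0.231 for UGE1 and 0.0715 to 0.127 for UGD3).

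The called members were spread over the genome. Tandem arrays, counted as neighbouring members with at most 1 other gene between them, numbered 23 and held 71 of the 131 members, and 12 of the 23 called members lay in one. UGT85A1 and UGT85A3 shared an array on chromosome 1, and UGT73B4 and UGT73B5 one on chromosome 2. Neither pair was called together in any comparison, and every other array held at most 1 called member. AT1G01390 and UGT72B3 (AT1G01420), with more than 1 other gene between them, were not counted as an array. Both fell in jazQ mycT relative to mycT. For 107 of the members less than 1% of the 50-base stretches of their transcripts occurred in another gene, and for 5 more than 10% did. The 5 include UGT73B4 and AT4G27560.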

How the data were processed

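RNA was taken from 12 libraries, 3 for each of 4 genotypes, each from about 200 pooled 8-d-old seedlings, and sequenced as 50-base single reads. The authors assigned reads to TAIR10 gene models with RSEM version 1.2.11 and deposited an expected count, here whole numbers, and a TPM value for every gene and library. The aligner and the use of strand are not given in the sources used here. The deposited TPM values sum over all genes, ribosomal RNA included, so a library rich in it has lower TPM elsewhere. Members and gene lists were chosen with earlier results of these data known. Counts of 20888 genes that passed edgeR's expression filter were fitted in 1 quasi-likelihood model of all 12 libraries (edgeR 4.0.16, R 4.3.3, TMM normalization, 6 contrasts, Benjamini-Hochberg adjustment, threshold 0.05), checked on simulated data. With 12336090 to 26347184 counts per library, members under about 1 TPM rest on few counts. The replicates are separate pools of seedlings, so p-values cover the spread between pools. Named were members called in any comparison, the 10 highest by mean TPM, members with a known role, and members sharing an array with a called one.

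Alternatives were RLE size factors, DESeq2 1.42.0, other filters, a block for the replicate number, limma 3.58.1 (trend) on log2(TPM + 1) and log2(TPM + 0.1), fits of the compared genotypes alone, a threshold of 0.01 and omission of each library. Omission of the 2 libraries richest in ribosomal RNA was added after the data were seen. Libraries of Col-0 and mycT with the same number deviated together (correlations 0.134 to 0.307), and those of no other pair of genotypes did in all 3 pairs. What a number marks is not given. Promoter and transcript sequences are from RefSeq, build TAIR10.1, in which all 131 members were found.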

Additional observations from a re-analysis of the deposited data

Results flagged for a closer look

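In 2 UDP-sugar supply genes, the effect of mycT in the jazQ background differed from its effect in Col-0 by a test of the difference itself (edgeR, interaction term). For RHM1 the difference was −0.62 on the log2 scale (adjusted p = 0.0126): RHM1 rose by 0.60 in mycT relative to Col-0, whereas its jazQ mycT libraries (90.47, 108.36 and 102.67 TPM) overlapped those of jazQ (112.90, 113.39 and 102.72 TPM). This call held without any single library. It was lost without mycT replicate 1 and jazQ mycT replicate 1 together (adjusted p = 0.0824) and on every TPM scale (adjusted p 0.0802 to 0.133). For SUS4 the difference was −1.22 (adjusted p = 0.0492), at 1.04, 1.22 and 0.96 TPM in Col-0, 1.54, 1.97 and 1.65 TPM in jazQ, 1.36, 1.50 and 1.03 TPM in mycT, and 0.82, 0.88 and 0.99 TPM in jazQ mycT. It was lost in 11 of 12 omissions of a library, all but that of mycT replicate 3 (adjusted p 0.0665 to 0.14), with DESeq2 (adjusted p = 0.0652) and on every TPM scale (adjusted p 0.171 to 0.409).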

How the results depend on the processing

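Of 38 called results of members, 9 kept their call in every omission of 1 library and 4 in every alternative (AT3G46700 in 3 comparisons and UGT76B1 in jazQ), and none changed sign. RLE size factors kept 38, DESeq2 35 and fits of the compared genotypes alone 25, and log2(TPM + 1) kept 20 of 37. Gains were counted only for the named members, with 402 results, called ones included. Of these, 31 had no call in the main fit and gained one in some alternative. On log2(TPM + 0.1) the median of all genes moved to as low as −0.106. In mycT relative to Col-0 it was −0.0839 on log2(TPM + 1). Depth limits the members below 1 TPM. For each changed count the cause was not tested.

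Members called in jazQ numbered 7 higher and 4 lower. Higher calls were 4 on log2(TPM + 1) and log2(TPM + 0.1), 2 without a TPM filter and 2 at a threshold of 0.01, and lower calls were 2 without a TPM filter, 2 with the genotypes alone and 0 at 0.01. In mycT, the 3 lower calls became 0 without a TPM filter, with the genotypes alone, at 0.01 and without both libraries rich in ribosomal RNA. In jazQ mycT relative to Col-0, the 6 higher calls became 1 on either TPM scale, 2 without a TPM filter and 2 at 0.01, and the 2 lower calls 5 with DESeq2, 7 on either TPM scale and 0 at 0.01. Relative to jazQ, the 1 higher call became 2 with DESeq2 and 0 on every TPM scale, at 0.01 and without both libraries, and the 2 lower calls 1 without a TPM filter, with the genotypes alone and without both libraries, and 0 at 0.01. Relative to mycT, the 7 higher calls became 3 on either TPM scale, 1 without a TPM filter, 3 at 0.01 and 2 without both libraries, and the 6 lower calls 3 on every TPM scale, 1 at 0.01 and 3 without both libraries.

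The replicate number as a block kept 36 calls. It gave 7 lower calls in jazQ and 2 in mycT. For jazQ mycT it gave 8 against Col-0 and 10 against mycT. It ended the calls of AT1G75420 in mycT and, relative to mycT, of AT2G22930 (adjusted p = 0.0546) and UGD3 (adjusted p = 0.0603), and made UGT84A1 lower in jazQ (adjusted p = 0.0169) and relative to mycT (adjusted p = 0.024). By their labels all pairs share only a number. Correlations were 0.134 to 0.307 for Col-0 and mycT and −0.195 to 0.163 for the other pairs of genotypes.

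UDP-sugar supply genes called relative to Col-0 in jazQ mycT numbered 1, and 2 with the block and 0 without a TPM filter. Relative to jazQ the 1 call became 0, and relative to mycT the 2 calls became 0, on log2(TPM + 1) and log2(TPM + 0.1), with the genotypes alone, at 0.01 and without both libraries, and the latter also without a TPM filter. In the interaction the 2 calls became 1 with DESeq2, without a count filter or with the block, and 0 on every TPM scale, at 0.01 and without both libraries.

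Omitting 1 library at a time gave 4 to 8 members higher and 1 to 5 lower in jazQ, 0 to 1 higher and 0 to 4 lower in mycT, 2 to 7 higher and 0 to 5 lower on comparing jazQ mycT with Col-0, 0 to 1 higher and 0 to 4 lower relative to jazQ, 3 to 8 higher and 1 to 8 lower relative to mycT, and 0 to 1 higher and 0 to 0 lower in the interaction. UDP-sugar supply genes numbered 1 to 2 in jazQ, in mycT, in jazQ mycT relative to Col-0 and in the interaction, 0 to 1 relative to jazQ and 0 to 2 relative to mycT.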

Other observations

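AT1G05675, a member called in no comparison, spread widely among libraries of the same genotype. It was at 0.92, 2.83 and 18.55 TPM in Col-0, 8.16, 8.51 and 6.06 TPM in jazQ, 1.25, 9.57 and 28.16 TPM in mycT, and 35.06, 19.22 and 10.45 TPM in jazQ mycT.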
